A study of Mus musculus with 2 samples.

Results

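Type 2 conventional dendritic cells (cDC2) of MC38 tumours were examined in the second of 2 hashed single-cell RNA libraries. The cells were those that the authors' deposited annotation calls cDC2: 268 of the 10476 annotated cells of that library, and of 468 cDC2 in both libraries together. MC38 is a transplantable mouse colon carcinoma line. It was grown subcutaneously in mice with human Fcγ receptor genes, and CD45-positive leukocytes were sorted from the tumours 4 days post treatment. All mice, controls included, shared this genotype and this tumour.

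Mice received PBS or an anti-mouse-GITR antibody built on human IgG1, 100 µg per injection, 2 times at an interval of 3 days. GITR is the product of Tnfrsf18 and costimulates T cells. The deposited annotation names 4 treatments: Untreated, N297A (an agonist with an Fc that it calls null), GA-aFuc (an agonist with an enhanced Fc) and GITR/Syn GA-aFuc (a non-agonist with an enhanced Fc). Library 2 held mice 7 to 12, with 1 Untreated mouse, 1 N297A mouse, 2 GA-aFuc mice and 2 GITR/Syn GA-aFuc mice. The study concerns the action of such Fc-engineered antibodies on dendritic cells and CD4 T cells.

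Conventional dendritic cells arise from bone marrow precursors that depend on the FLT3 receptor, and they sample antigen in tissues. The type 2 lineage, which relies on IRF4, presents antigen on MHC class II mainly to CD4 T cells. Its surface bears C-type lectins, among them CD209a and the galactose-binding lectins encoded by Clec10a and Mgl2, and it can release CCL17, a chemokine for CCR4-bearing T cells. When dendritic cells mature and move to lymph nodes they raise CCR7.

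The 6 mice gave 47 (Untreated), 49 (N297A), 33 and 38 (GA-aFuc), and 52 and 49 (GITR/Syn GA-aFuc) cDC2, with 409025 to 605068 unique molecular identifiers (UMIs) per mouse. The cells had a median of 11115 UMIs and 3087.5 genes, and the median mitochondrial share was 1.35%. Each cell's mouse was read from the order of the annotation table, and the most abundant hashtag agreed for 10476 of 10476 cells of the library. The top hashtag held a median of 94.8% of a cDC2's hashtag counts and 61.0% in the lowest cell. The libraries shared 34 barcodes, 1 of them of a cDC2 of library 2. Xist, which female cells express, stood at 361 and 367 counts per 1000000 mapped UMIs (CPM) in 1 mouse each of GA-aFuc and GITR/Syn GA-aFuc, and at 1.69 to 4.89 CPM in the other 4. The lone Untreated and N297A mice were among those 4, so Xist level was not balanced over treatments. The fit of cDC2 genes held no term for sex, and its part in the differences below was not tested. Below, CPM refer to the mapped UMIs of a mouse's cDC2, and values for single mice follow the order Untreated, N297A, GA-aFuc (both mice), GITR/Syn GA-aFuc (both mice).

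The label was checked against 7 markers of cDC2. Of the 268 cells, 265 held a UMI of at least 1 marker, 179 (66.8%) of at least 3 and 52 of at least 5. The same count of at least 3 was reached by 43.8% of 48 cDC1, 11 of 55 mature regulatory dendritic cells (mregDC), 63.0% of 27 plasmacytoid dendritic cells (pDC), 1.15% of 3119 monocytes and 0.472% of 5725 macrophages. It was reached by 0 of 542 CD8 T cells, which allows a share of up to 0.554%. The markers thus set these cells apart from monocytes, macrophages and T cells more than from pDC.

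Cd209a, the CD209a lectin, stood at 138 CPM in all cDC2 summed and at 0 in cDC1 and mregDC, with 34.9 in pDC. H2-DMb2, a chain of the peptide editor H2-DM, stood at 304 CPM in cDC2 and at 94 in cDC1. Mgl2 was at 241 CPM in cDC2 and at 31 or less in the other 5 types. The other markers were not confined to the type. Ccl17 was at 234 CPM in cDC2 and at 413 in mregDC, Flt3 at 60 and at 286, and Kmo, an enzyme of tryptophan breakdown, at 166 in cDC2 and 244 in pDC. Clec10a was at 99 CPM in cDC2 and at 253 in pDC.

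**Figure D1:**
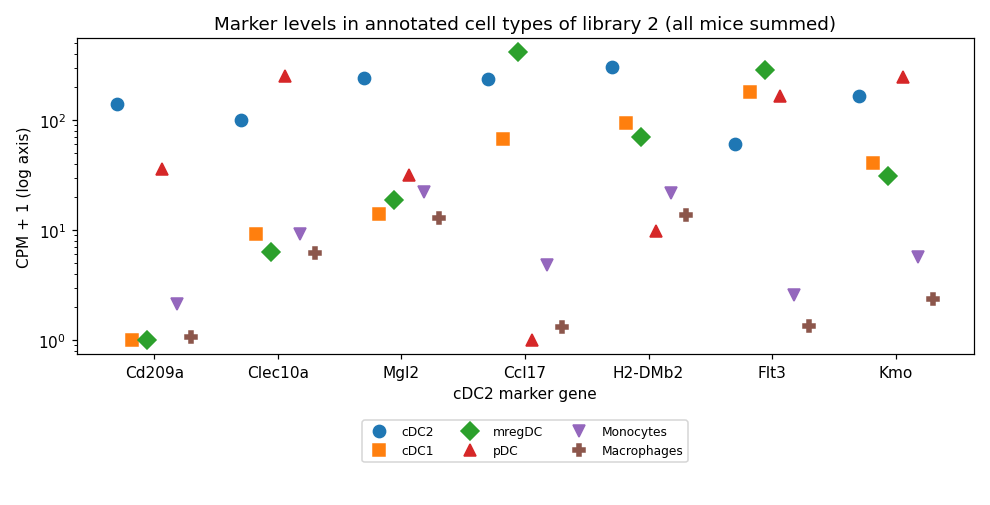
Level of the 7 cDC2 markers (x axis) in 6 annotated cell types of library 2, as CPM plus 1 on a log axis, with the cells of all 6 mice summed into 1 point per type. Cd209a, Mgl2 and H2-DMb2 are highest in cDC2, whereas mregDC lead for Ccl17 and Flt3 and pDC for Clec10a and Kmo.

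Between 25.4% (Ccl17) and 81.3% (H2-DMb2) of the cDC2 held a UMI of a marker. With each cell thinned to 3000 UMIs, which left out 1 shallower cDC2, the range was 15.4% (Clec10a) to 47.2% (H2-DMb2). In CD8 T cells, which should lack them, 0% to 1.3% held a UMI before thinning and at most 0.8% after it, at a median of 8505 UMIs per cell. Of the other dendritic cell types, the 10 cDC1 markers summed to 789 to 1266 CPM per mouse and the 8 pDC markers to 916 to 1230. Wdfy4, which serves cross-presentation, made up much of the former, at 396 CPM against 1189 in cDC1, and Bst2, an interferon-induced tetherin, much of the latter, at 797 against 3508 in pDC. The most restricted genes were low. Xcr1, the chemokine receptor of cDC1, was at 4.75 CPM against 459 in cDC1, and Siglech, a pDC receptor, was at 1.58 against 1669 in pDC. The 9 T cell markers summed to 5 to 22 CPM per mouse and the 7 neutrophil markers to 2 to 17. The 10 macrophage markers summed to 660 to 2072, and the 8 monocyte markers to 3223 to 4152. The 8 NK cell markers summed to 369 to 524 CPM, of which Klrk1 made up most, at 421 CPM and in 87.3% of cDC2. The B cell markers summed to 42 to 96 CPM, and Pax5 was at 0. The tumour and stroma markers summed to 41 to 79.

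The annotation divides the cDC2 into 3 clusters: cluster 36 with 131 cells, cluster 46 with 119 and cluster 64 with 18. Differences between clusters are given as a description with no test, since clusters were formed from these genes. Cells of cluster 36 held Cd209a at 295 CPM against 33.6 in cluster 46, and Clec10a at 172 against 56.7. They also held more of the monocyte-shared genes Ly6c2 (1161 against 144 CPM), Ccr2, the CCL2 receptor (176 against 25.7), and Lyz2, lysozyme (457 against 103). Cd209a, Ccr2 and Ly6c2 were higher in cluster 36 in 6 of 6 mice.

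Cluster 46 held more H2-DMb2 (389 against 214 CPM), Hepacam2 (147 against 40.4), Epcam, an adhesion molecule (83.7 against 14.8), Ahr, the aryl hydrocarbon receptor (353 against 198), and Plet1 (277 against 76.2), each in 6 of 6 mice. Mgl2 was at 237 CPM in cluster 36 and 270 in cluster 46 with all mice summed, but it was higher in cluster 46 in 5 of 6 mice, and 46.2% of cells in cluster 46 held a UMI against 27.5% in cluster 36. The exception was the second GA-aFuc mouse, with 975 CPM in cluster 36 against 291 in cluster 46. Cluster 64 was set apart by genes of the cell cycle: Mki67, a marker of cycling cells, was at 495 CPM against 14.0 and 9.9 in clusters 36 and 46, and Top2a, a topoisomerase of dividing cells, at 790 against 18. The median UMI count was 9218 in cluster 36, 12191 in cluster 46 and 19097.5 in cluster 64. The cDC2 therefore held a CD209a-high group, an Epcam- and Plet1-high group and a small group with cell-cycle transcripts.

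The share of cDC2 among annotated leukocytes was compared over 12 mice of both libraries, 3 per treatment. It was 2.06% ± 0.518 in Untreated mice, 2.71% ± 0.452 with N297A, 2.25% ± 0.296 with GA-aFuc and 2.67% ± 0.294 with GITR/Syn GA-aFuc (SD, n = 3 each). Single mice ranged from 1.75% to 3.15%. The treatments overlapped and the shares did not differ beyond their spread (exact two-sided permutation within libraries, p = 0.209, adjusted over 10 cell types 0.349). Among annotated dendritic cells, cDC2 made up 60.3% ± 9.89, 67.3% ± 4.28, 66.6% ± 3.18 and 62.8% ± 5.22 in the same order (exact permutation p = 0.410). Cluster 36 held 33.3% to 68.8% of the cDC2 of a mouse. Its range was 47.1% to 57.6% with GA-aFuc and 41.2% to 44.9% with GITR/Syn GA-aFuc, which did not overlap with each other. Both overlapped with the Untreated mice (33.3% to 53.8%). Cluster 46 parted the same 2 treatments the other way, at 36.4% to 47.1% with GA-aFuc and 51.0% to 58.8% with GITR/Syn GA-aFuc. These cluster shares are given without a test. In library 2 cluster 36 held 53.2%, 44.9%, 57.6% and 55.3%, and 42.3% and 44.9%.

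Cluster 64 was thinner with the antibodies of enhanced Fc. It held 8 of 240 cDC2 in the 6 mice of GA-aFuc and GITR/Syn GA-aFuc (0% to 6.06% per mouse) and 22 of 228 in the other 6 (6.25% to 12.8% per mouse). Pooled over mice, the shares were 2.94% against 7.58% in library 1 and 3.49% against 12.5% in library 2. This split was noticed after the gene results and is given without a test.

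**Figure D2:**
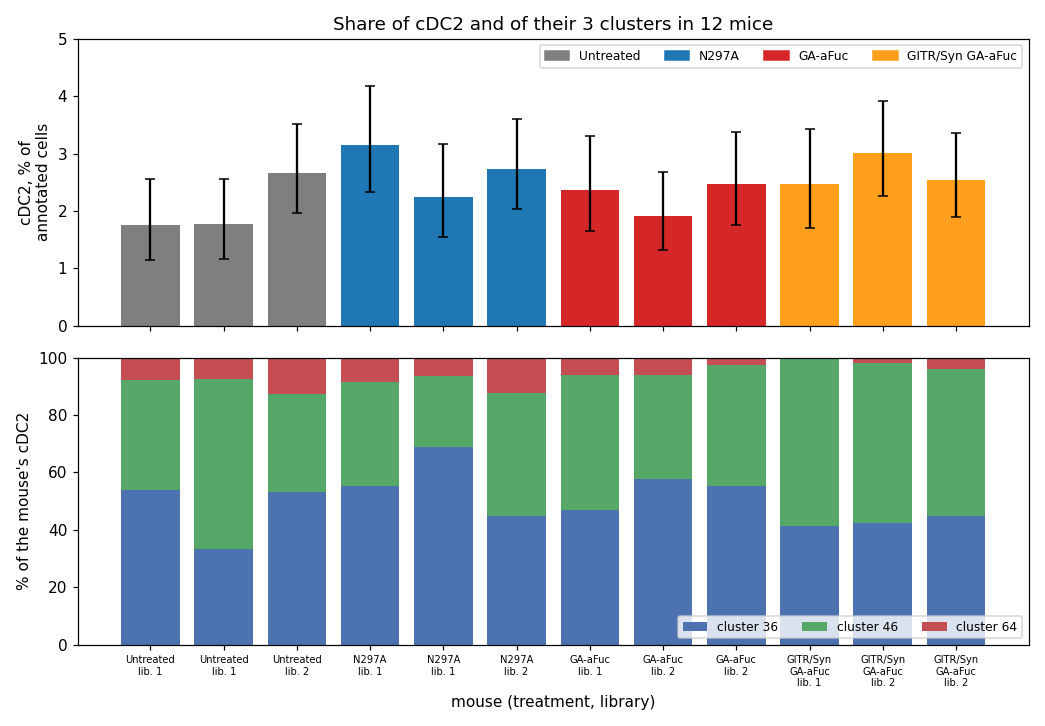
Top: cDC2 as a percentage of annotated cells in each of 12 mice (bars, coloured by treatment; error bars are 95% exact binomial intervals for counting error). Bottom: percentage of each mouse's cDC2 in clusters 36, 46 and 64; cluster 64 stays at or below 6.06% in all GA-aFuc and GITR/Syn GA-aFuc mice and above that in the other mice.

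Gene levels were compared on UMI counts summed per mouse, with 7404 genes tested in 1 edgeR fit. A gene was called at an adjusted p under 0.05. Few genes were called. GA-aFuc against Untreated gave 19 (0.257% of genes tested; 0.203% higher and 0.054% lower) and GA-aFuc against N297A 42 (0.567%; 0.392% higher and 0.176% lower). GITR/Syn GA-aFuc against GA-aFuc gave 30 (0.405%; 0.108% higher and 0.297% lower). GITR/Syn GA-aFuc against Untreated gave 4 (0.054%; 0.027% in each direction), and N297A against Untreated gave 9 (0.122%). The 4 mice of both antibodies with enhanced Fc against the other 2 mice gave 35 (0.473%), with 0.243% higher and 0.23% lower. The comparisons share mice, so they are not independent of each other. The fit has 2 residual degrees of freedom, and the lone Untreated and N297A mice are assumed to vary like the treatments with 2 mice. DESeq2 on the same sums called 1, 0, 6, 0, 2 and 1 genes in the order above, and without the 18 cells of cluster 64 edgeR called 1, 0, 9, 0, 0 and 0. Calls below therefore rest on the edgeR model and, for most genes, on the whole set of cells. Where a summed level differs, more cells with the transcript and more transcript per cell cannot be told apart from the sum alone.

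Of the 7 markers, Cd209a, Clec10a, Mgl2 and Ccl17 were called in at least 1 comparison. Of all 7404 genes tested, 90 were. H2-DMb2, Flt3 and Kmo were called in none. Cd209a (ENSMUSG00000031494) was at 90.7, 128, 245 and 296, and 57.8 and 91.4 CPM. Both GA-aFuc mice lay above all 4 others. The share of all genes with that pattern was not counted, here or for the genes below. GA-aFuc against Untreated gave a rise of 1.59 ± 0.31 (log2 fold change ± SE; adjusted p = 0.0173) and GITR/Syn GA-aFuc against GA-aFuc a fall (-1.84 ± 0.25, adjusted p = 0.000163). The second difference was called under all 16 alternatives tried, with log2 fold changes from -2.22 to -1.54. Cells with a Cd209a UMI numbered 15 of 47, 10 of 49, 12 of 33 and 10 of 38, and 15 of 52 and 11 of 49. Within cluster 36, Cd209a was at 210, 320, 447 and 466, and 165 and 180 CPM, the same order of treatments as in all cDC2.

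Clec10a (ENSMUSG00000000318) was at 53.0, 41.5, 149 and 203, and 81.0 and 110 CPM. All 4 mice given an enhanced Fc lay above the other 2 (6.08% of all genes tested did so), with GA-aFuc highest. The level rose with GA-aFuc against Untreated (1.74 ± 0.35, adjusted p = 0.0200) and against N297A (2.09 ± 0.37, adjusted p = 0.00584), and with both antibodies of enhanced Fc against the other mice (1.48 ± 0.26, adjusted p = 0.00390). Mgl2, its paralogue, was at 183, 132, 226 and 628, and 248 and 139 CPM. One GA-aFuc mouse stood far above the rest, and the rise against N297A (1.71 ± 0.40, adjusted p = 0.0405) was not called without that mouse.

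Ccl17 was at 233, 43.3, 942 and 112, and 145 and 89.7 CPM. The high value came from the first GA-aFuc mouse, where 1 cell held 165 of 392 UMIs. The level was higher with GA-aFuc than with N297A (3.60 ± 0.69, adjusted p = 0.00844), by 1.39 without that first mouse (adjusted p = 0.0397). It fell with GITR/Syn GA-aFuc against GA-aFuc (-2.15 ± 0.45, adjusted p = 0.0199), and without that first mouse the value was 0.07. H2-DMb2 spanned 274 to 335 CPM, Flt3 47.9 to 81.2 and Kmo 142 to 218 over the 6 mice.

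The other genes that mark the lineage were carried at low to moderate levels and were not called in any comparison. Itgax, the CD11c integrin chain, was at 152 to 227 CPM and in 81.7% of cDC2, and Sirpa, which binds CD47, at 108 to 164 and in 71.6%. Itgam, the CD11b chain, was at 52.9 to 103 CPM. Irf4 was at 64.2 CPM in all cDC2 against 4.95 in monocytes, and Zbtb46, a transcription factor of conventional dendritic cells, at 43.7 against 0.769. Cd24a was at 19.9 to 57.7 CPM. Clec4a4, a lectin of splenic cDC2, was at 3.61 CPM in the N297A mouse and 0 in the other 5, and was too low to test.

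Of the 14 genes of the identity list, which holds the 7 markers, 13 were tested. With GA-aFuc 2 rose against Untreated and 3 against N297A, at medians of 0.35 and 0.33, where 0.203% and 0.392% of all genes tested rose. With GITR/Syn GA-aFuc 2 fell against GA-aFuc, at a median of -0.38, where 0.297% of all genes tested fell. None of the 13 was called for GITR/Syn GA-aFuc or N297A against Untreated, with medians of -0.03 and -0.16. Genes of a cDC2 subset known to depend on Notch in the spleen were low: the 8 genes on that list summed to 9.03 to 73.6 CPM per mouse. Esam and Dtx1 were at 0, while 6 genes held UMIs and 2 could be tested. Of these, Tbx21 was called, for N297A against Untreated (below).

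**Figure D3:**
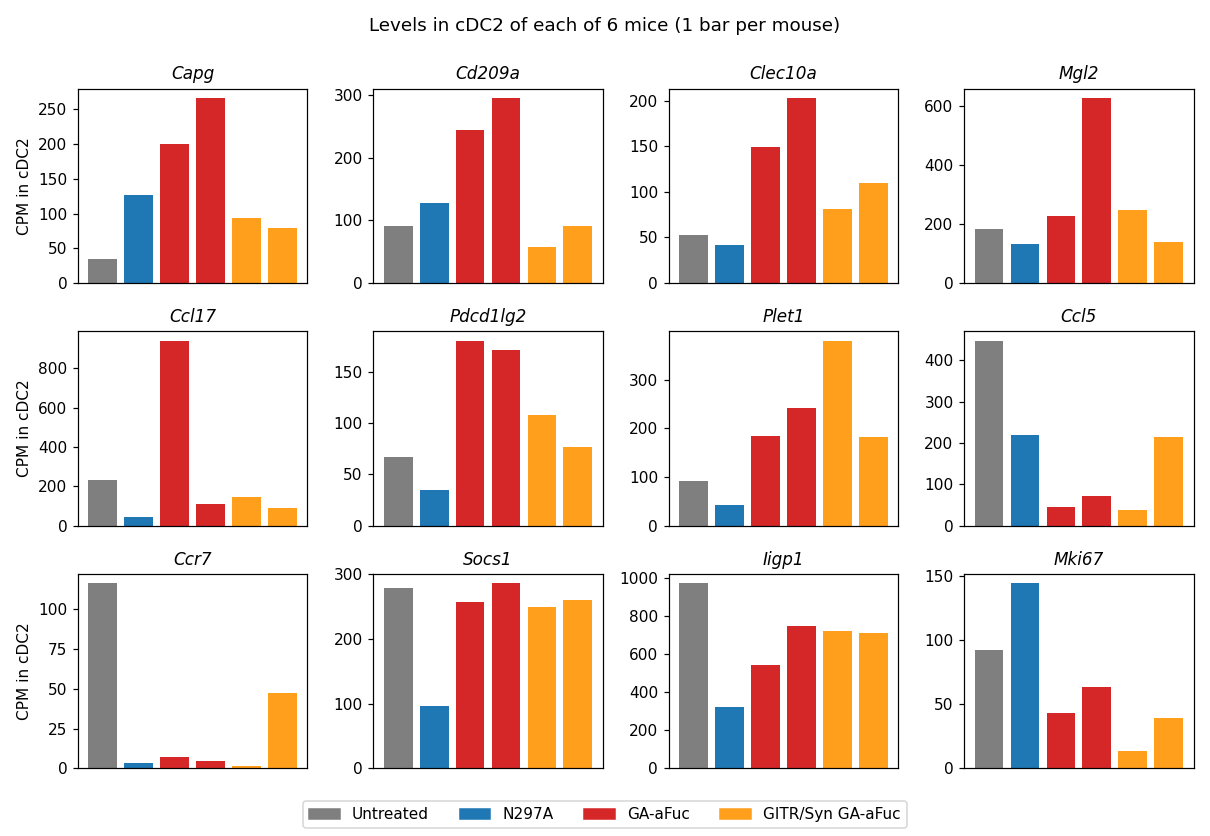
CPM of 12 genes in the cDC2 of each of 6 mice, 1 bar per mouse, coloured by treatment, each panel starting at 0. Capg, Cd209a and Clec10a are highest in both GA-aFuc mice, Ccl17 and Mgl2 in only 1 of them, and Socs1 and Iigp1 are lowest in the N297A mouse.

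GA-aFuc against Untreated asks what the agonist with an enhanced Fc did relative to PBS. In cDC2, 15 genes rose and 4 fell. The genes that rose included Capg, Cd209a and Clec10a, the galectins Lgals1 and Lgals3 and the actin gene Actg1. The 4 that fell were Ccr7, Ccl5, Id2 and Cst3.

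Capg (ENSMUSG00000056737), an actin filament capping protein, was at 34.2, 126, 200 and 266, and 94.2 and 79.5 CPM. The Untreated mouse was lowest and both GA-aFuc mice highest. The difference between them was 2.77 ± 0.36 on the log2 scale (adjusted p = 0.000191) and was called under all 15 alternatives, DESeq2 and the fit without cluster 64 included. No alternative could leave out the lone Untreated mouse, so the weight of that mouse was not tested. Cells with a Capg UMI numbered 14 of 47, 25 of 49, 22 of 33 and 25 of 38, and 19 of 52 and 18 of 49. Capg was one of 22 genes on a list of actin, annexin, S100 and galectin genes, of which 21 were tested. Of these, 4 rose and 0 fell (0.203% of all genes tested rose), and the median log2 fold change was 0.32 with 20 of 21 above 0. The median of all genes was 0.00. Lgals1, galectin-1, rose by 1.04 ± 0.19 (adjusted p = 0.0123), Lgals3, galectin-3, by 0.89 ± 0.17 (adjusted p = 0.0173) and Actg1 by 0.57 ± 0.12 (adjusted p = 0.0366). Without cluster 64 the list's median was 0.28 and 1 member, Capg, was called.

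Dok2, an adaptor that dampens tyrosine kinase signals, was at 0, 5.42, 45.7 and 53.8, and 4.96 and 1.69 CPM. Its mean with GA-aFuc was at least 9.69-fold higher than the Untreated mouse, whose count of 0 was set to a floor of 3 counts. On a list of 16 genes of alternative activation, the state macrophages enter with IL-4, 11 were tested and 2 rose, Clec10a and Arg1 (0.203% of all genes tested rose), at a median of 1.24 against 0.00 for all genes. The Arg1 call rested on 1 cell, which held 70 of the 71 UMIs of the first GA-aFuc mouse, and it was lost without that mouse. Retnla, a defining gene of that state, was at 0 in all 6 mice. The list shares Clec10a, Mgl2 and Irf4 with the cDC2 identity list, so the 2 lists are not separate evidence.

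Several genes that rose were also abundant in monocytes. Capg was at 443 CPM in monocytes against 122 in all cDC2, Zfp608 at 153 against 78.8 and Lilrb4b, an inhibitory receptor, at 193 against 98.8. Lilrb4b was at 41.1, 61.4, 98.6 and 252, and 76.0 and 108 CPM, with the second GA-aFuc mouse far above the rest (2.10 ± 0.44, adjusted p = 0.0325). It has a near-identical neighbour, so its count is uncertain. The 8 monocyte markers summed to 3223, 4009.9, 4152 and 3841, and 3763 and 3419 CPM, and the 10 macrophage markers to 1112, 1616, 2072 and 660, and 992 and 1506. Of the monocyte markers 5 of 8 were tested and 0 were called for GA-aFuc against Untreated, but 5 of 5 were above 0, at a median of 0.84 against 0.00 for all genes. For GITR/Syn GA-aFuc against GA-aFuc their median was -0.41, with 1 of 5 above 0. The GA-aFuc mice thus lay at opposite ends for macrophage markers, and the Untreated mouse was lowest for monocyte markers. The part of either cell type in these results was not tested.

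Ccl5, a chemokine for T cells and monocytes, was at 448, 218, 45.7 and 70.9, and 38.01 and 215 CPM. It fell with GA-aFuc against Untreated (-2.92 ± 0.46 on the log2 scale, adjusted p = 0.00309). Among mice given the other enhanced Fc, 1 was as low as the GA-aFuc mice and 1 was as high as the N297A mouse. Id2, a transcriptional regulator of dendritic cell development, was at 325, 251, 98.6 and 142, and 155 and 188 CPM, and fell by 1.42 ± 0.27 (adjusted p = 0.0123).

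Ccr7 was at 116, 3.61, 7.21 and 4.89, and 1.65 and 47.4 CPM. In the Untreated mouse all 68 UMIs lay in 5 cells. The fall with GA-aFuc (-4.20 ± 0.74, adjusted p = 0.0122) and with N297A (-4.92 ± 0.96, adjusted p = 0.0205) thus concerns a few cells of 1 mouse. The mregDC, the type defined by Ccr7, held it at 2004 CPM. Of the 12 mregDC markers 7 were tested, and no other one was called in either comparison. Over the whole list they summed to 602, 444, 486 and 467, and 377 and 609 CPM, with Nudt17 at 0. The part of mregDC-like cells in the Ccr7 difference was not tested.

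GA-aFuc against N297A compares the agonist with and without Fc receptor binding, as the annotation describes it. In cDC2, 29 genes rose and 13 fell. The genes that rose included lectins and ligands of alternative activation, the chemokines Ccl17 and Ccl4, and the feedback inhibitors of cytokine signalling Cish and Socs1. Those that fell included Ube2c and histone genes of dividing cells.

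Pdcd1lg2, which encodes PD-L2, a ligand of the inhibitory receptor PD-1, was at 66.7, 34.3, 180 and 171, and 107 and 76.1 CPM. All 4 mice given an enhanced Fc lay above the other 2 (6.08% of all genes tested did so), and GA-aFuc was highest. It rose against N297A by 2.36 ± 0.37 (adjusted p = 0.00491). With Pdcd1lg2, Clec10a and Mgl2, 3 of 11 tested genes of alternative activation rose and 0 fell (0.392% of all genes tested rose), at a median of 1.71 against 0.02 for all genes. Clec10a and Mgl2 were already counted among the identity genes, and the Mgl2 call was lost without the second GA-aFuc mouse. In monocytes of the same mice the log2 fold changes against N297A were 2.02 for Mgl2 and 1.02 for Clec10a. Il4ra, the receptor chain for IL-4, was at 95.9 to 130 CPM in cDC2 and Irf4 at 52.4 to 91.3, and neither was called. Without cluster 64 the list's median was 1.61 with 0 called.

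Plet1, a membrane-anchored protein higher in cluster 46 than in cluster 36, was at 92.4, 43.3, 185 and 242, and 380 and 181 CPM, and rose against N297A by 2.31 ± 0.41 (adjusted p = 0.00584). Ccl4, a chemokine, was at 269, 213, 411 and 482, and 326 and 349 CPM, and rose by 1.08 ± 0.23 (adjusted p = 0.0191). Cish, an inhibitor induced by STAT5, was at 70.1, 43.3, 132 and 181, and 89.2 and 77.8 CPM, and rose by 1.86 ± 0.36 (adjusted p = 0.00844). For these 3 genes the N297A mouse was the lowest of the 6. Of 18 tested genes of glycolysis and hypoxia 2 rose, Hilpda (2.02 ± 0.48, adjusted p = 0.0433) and Pfkp (1.06 ± 0.23, adjusted p = 0.0177), and 17 were above 0, at a median of 0.61. Of all genes tested 0.392% rose, and their median was 0.02.

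Sdc4, the cell surface proteoglycan syndecan-4, was at 37.6, 23.5, 93.8 and 154, and 39.7 and 50.8 CPM. It rose against N297A by 2.40 ± 0.43 (adjusted p = 0.00584) and fell with GITR/Syn GA-aFuc against GA-aFuc (-1.44 ± 0.30, adjusted p = 0.0195). Both GA-aFuc mice lay above all others. Of 18 genes of an activation list 2 rose, Nfkbia, the inhibitor that NF-κB induces, and Ier3, with 8 of 18 above 0 and a median of -0.03 (0.392% of all genes tested rose). Nfkbia was at 174.5, 115.5, 257 and 372, and 180 and 181 CPM (1.46 ± 0.29, adjusted p = 0.00987). Vdr, the vitamin D receptor, was at 195 CPM in the Untreated mouse, 75.8 in the N297A mouse and 154 to 207 in the other 4, so that the N297A mouse alone was low (1.34 ± 0.31, adjusted p = 0.0405).

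Promoter sequence was taken for 3 of the genes that differed between GA-aFuc and N297A and that cytokines are known to induce: Ccl17, Pdcd1lg2 and Socs1. The 100 bases from 160 to 61 upstream of the RefSeq start are shown 5′ to 3′ on the gene's strand, from the mouse build GRCm38.p6, which is not the build of the counts. Capitals mark matches to TTCNNNGAA or TTCNNNNGAA, spacings of the palindrome that STAT factors bind, in the first 2 and to GAAANNGAAA, a repeat of the kind that interferon regulatory factors bind, in the last. Both strands were searched; the first 2 motifs are their own reverse complement, and the third was also sought as TTTCNNTTTC. The windows are chr8:94810293-94810392 on the plus strand, chr19:29410759-29410858 on the plus strand and chr16:10785597-10785696 on the minus strand.
Ccl17: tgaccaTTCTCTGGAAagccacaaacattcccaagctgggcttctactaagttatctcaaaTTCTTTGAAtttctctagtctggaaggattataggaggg
Pdcd1lg2: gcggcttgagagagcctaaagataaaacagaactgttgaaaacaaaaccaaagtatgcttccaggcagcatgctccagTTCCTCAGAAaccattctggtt
Socs1: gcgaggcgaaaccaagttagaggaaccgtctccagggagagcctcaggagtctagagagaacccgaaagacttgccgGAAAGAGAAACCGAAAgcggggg
In Ccl17 the matches start 154 and 99 bases upstream, in Pdcd1lg2 82 bases, and in Socs1 2 overlapping matches start 83 and 77 bases upstream. Of the 42 genes called in this comparison 31 matched a promoter of 250 bases before to 50 after the start. TTCNNNNGAA was in 4 of these 31 (12.9%) and in 6.95% of 32851 promoters, TTCNNNGAA in 4 (12.9%) against 8.30%, and GAAANNGAAA in 4 (12.9%) against 3.44%. These are letter matches and are given as a description.

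N297A against Untreated compares the agonist lacking Fc receptor binding with PBS, 1 mouse against 1. All 9 genes called were lower with N297A (0.122% of genes tested, the same share as for either direction). They included 4 of 17 tested genes of the interferon γ response: Iigp1, Cxcl9, Cxcl10 and Socs1. Genes of this list are induced after IFN-γ binds its receptor, and CXCL9 and CXCL10 draw CXCR3-bearing T cells.

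Iigp1, an immunity-related GTPase, was at 972, 321, 541 and 748, and 722 and 711 CPM. The N297A mouse was lowest and the Untreated mouse highest, and the difference was -1.59 ± 0.22 (adjusted p = 0.000594). Cxcl9 was at 1411, 390, 954 and 396, and 838 and 1084 CPM, so that the second GA-aFuc mouse was as low as the N297A mouse. It fell by 1.85 ± 0.31 (adjusted p = 0.00513). Cxcl10 was at 1112, 460, 625 and 853, and 704 and 834 CPM, and fell by 1.27 ± 0.22 (adjusted p = 0.00554). Socs1, the inhibitor that IFN-γ induces, was at 279, 95.7, 257 and 286, and 250 and 261 CPM, with the N297A mouse alone low. It fell by 1.54 ± 0.30 (adjusted p = 0.0205). The median of the 17 list members was -0.77 with 1 above 0, against 0.00 for all genes.

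Gm4951, an interferon-inducible GTPase gene, was at 544, 155, 368 and 379, and 291 and 315 CPM and fell by 1.81 ± 0.26 (adjusted p = 0.000594). Tbx21, the transcription factor T-bet, was at 59.9, 1.81, 36.1 and 17.1, and 21.5 and 16.9 CPM and fell by 4.88 ± 0.89 (adjusted p = 0.0111). It is on the list of the Notch-dependent subset named above. Trim69 was at 61.6 CPM in the Untreated mouse and 0 in the N297A mouse, at least 11.4-fold higher in the former against a floor of 3 counts. Against N297A, GA-aFuc was higher for 2 of the 17 genes, Socs1 (1.52 ± 0.27, adjusted p = 0.00584) and Iigp1 (1.02 ± 0.20, adjusted p = 0.0101), with 16 of 17 above 0 and a median of 0.41 (0.392% of all genes tested rose). Against Untreated, GA-aFuc changed 0 of the 17, at a median of -0.26. These comparisons share their mice, and the low side is 1 N297A mouse throughout. Of the 18 genes of the type I interferon response 0 were called in any of the 6 comparisons. Their median was -0.26 for GA-aFuc against Untreated, with 2 of 18 above 0. It was -0.23 for GA-aFuc against N297A and -0.24 for GITR/Syn GA-aFuc against Untreated, with 4 of 18 above 0 in each. For N297A against Untreated it was 0.01, for GITR/Syn GA-aFuc against GA-aFuc 0.09 and for the pooled contrast -0.15. Without cluster 64 the median of the interferon γ list for N297A against Untreated was -0.75 and 0 members were called.

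**Figure D4:**
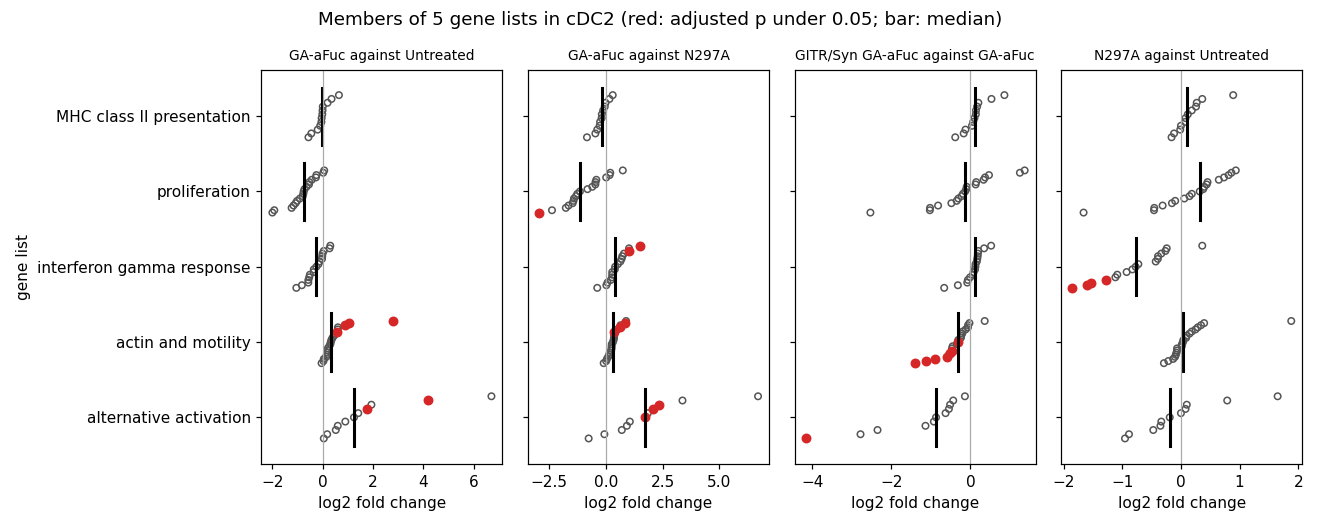
Log2 fold change (x axis) of each tested member of 5 gene lists in 4 comparisons in cDC2; red points passed an adjusted p of 0.05 and black bars are list medians. Actin and motility genes lie to the right with GA-aFuc and to the left with GITR/Syn GA-aFuc against GA-aFuc, interferon γ genes lie to the left with N297A, and MHC class II genes stay near 0.

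GITR/Syn GA-aFuc against GA-aFuc compares an enhanced Fc without and with GITR agonism, as the annotation describes it, with 2 mice on each side. In cDC2, 22 genes were lower and 8 higher. The lower genes included Cd209a and 7 of 21 tested genes of the actin and motility list, against 0 higher (0.297% of all genes tested were lower). The list's median was -0.31 with 1 of 21 above 0, against 0.00 for all genes.

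Lgals1 was at 573, 753, 974 and 1364, and 582 and 477 CPM. Both GA-aFuc mice lay above all others, and the level fell with GITR/Syn GA-aFuc by 1.13 ± 0.15 (adjusted p = 0.000163). Capg fell by 1.41 ± 0.24 (adjusted p = 0.00229), and Anxa2, annexin A2, by 0.89 ± 0.18 (adjusted p = 0.0181). S100a6 was at 2692, 2872, 3445 and 3919, and 2529 and 2303 CPM and fell by 0.60 ± 0.09 (adjusted p = 0.000914). The other 3 were S100a4 (-0.52), Actg1 (-0.47) and Actb (-0.31). Without cluster 64, 3 of the 21 were called, at a median of -0.32. Cluster 36, where Capg stood at 207 CPM against 60.6 in cluster 46, made up 57.6% and 55.3% of cDC2 with GA-aFuc and 42.3% and 44.9% with GITR/Syn GA-aFuc. Within cluster 36, Capg was at 273 and 396 against 186 and 154 CPM.

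Gm56663 (ENSMUSG00000120878) was at 13.7, 25.3, 60.1 and 188, and 13.2 and 8.46 CPM, and fell by 3.48 ± 0.47 (adjusted p = 0.000163) under all 16 alternatives. Among the genes that rose was Cst3, cystatin C, a cathepsin inhibitor abundant in dendritic cells, at 13726, 10031, 10798 and 9970, and 14907 and 12432 CPM (0.41 ± 0.07, adjusted p = 0.00171). Il2ra, the IL-2 receptor α chain, was at 83.8, 72.2, 16.8 and 39.1, and 81.0 and 86.3 CPM, low in both GA-aFuc mice alone.

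GITR/Syn GA-aFuc against Untreated gave 4 calls. Dcstamp, a membrane protein of dendritic cells and osteoclasts, was at 24.0, 72.2, 50.5 and 90.5, and 101 and 130 CPM and rose by 2.28 ± 0.42 (adjusted p = 0.0230). Ly6c2 was at 292, 650, 733 and 408, and 704 and 702 CPM and rose by 1.29 ± 0.24 (adjusted p = 0.0230). Hmgb2 and the histone gene H2ac8 fell. For Dcstamp and Ly6c2 the Untreated mouse was lowest. Of 4 named calls, 0 remained with RLE size factors, a stricter or no filter, DESeq2 or without cluster 64.

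The 2 antibodies with enhanced Fc were then pooled, 4 mice against the Untreated and N297A mice. In cDC2, 18 genes rose and 17 fell; with RLE size factors, 11 rose and 16 fell. Plet1 rose by 1.96 ± 0.27 (adjusted p = 0.000469), and so did Pdcd1lg2 (1.42 ± 0.25, adjusted p = 0.00390), Ier3, an early response gene (1.31 ± 0.25, adjusted p = 0.00743), and Ccl4 (0.72 ± 0.16, adjusted p = 0.0338). For each of these 4 genes all 4 treated mice lay above the other 2 (6.08% of all genes tested did so). Lack of overlap was itself a condition for naming called genes, so it adds no weight to these calls. Ccl5 fell by 1.84 ± 0.32 (adjusted p = 0.00390) and Id2 by 0.97 ± 0.19 (adjusted p = 0.00731).

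Genes of cell division fell together. Of 19 tested genes of a proliferation list, 7 fell and 0 rose (0.23% of all genes tested fell), at a median of -0.87 with 1 of 19 above 0, against 0.02 for all genes. Mki67 was at 92.4, 144, 43.3 and 63.6, and 13.2 and 38.9 CPM, and fell by 1.61 ± 0.28 (adjusted p = 0.00390). Stmn1, a microtubule regulator, was at 178, 231, 144 and 63.6, and 69.4 and 47.4 CPM, and fell by 1.36 ± 0.23 (adjusted p = 0.00390). Top2a was at 139, 190, 69.7 and 88.0, and 54.5 and 79.5 CPM, and fell by 1.14 ± 0.22 (adjusted p = 0.00731). Rrm2, Birc5, Hmgb2 and Ube2c also fell. All 4 treated mice were below the other 2 for Mki67, Stmn1 and Top2a (8.82% of all genes tested were). For Mki67 this was again a condition of naming.

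The cells of cluster 64 moved with this result: they were 12.8% and 12.2% of cDC2 in the Untreated and N297A mice and 1.92% to 6.06% in the other 4. Without them 11 proliferation genes were tested, 0 were called and the median was 0.04. The contrast also leaned on the single mice. Without the N297A mouse 1 proliferation gene was called at a median of -0.90 and 2 of 18 named genes of the contrast were called; without the Untreated mouse these were 5 genes, -1.27 and 10 of 18.

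Other gene groups of dendritic cell function held few or no called genes. Of 12 genes of MHC class II presentation, all tested, 0 were called in any of the 6 comparisons by edgeR, and they summed to 38287 to 46819 CPM per mouse. H2-Ab1 alone was at 7760 to 9985 CPM and Cd74, the invariant chain, at 13803 to 16046. Of 12 genes of MHC class I presentation 0 were called. Among 14 costimulatory and checkpoint ligands 10 were tested and Pdcd1lg2 was the only one called. It rose with GA-aFuc against N297A and with both Fc-enhanced antibodies (0.392% and 0.243% of all genes tested rose). The list medians ran from -0.04 to 0.28. Cd86 was at 1020 to 1313 CPM, Cd80 at 149 to 294 and Cd274, which encodes PD-L1, at 193 to 410. Of 16 cytokine genes 8 were tested and 0 were called. Il1b was at 1264 to 2119 CPM, and Il12b, a subunit of IL-12, at 0 to 15.4. Of 9 tested macrophage markers 0 were called in any comparison.

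Of 18 transcription factors of dendritic cells, all tested, Id2 was the only one called. It fell with GA-aFuc against Untreated and with both Fc-enhanced antibodies (0.054% and 0.23% of all genes tested fell). Irf8 was at 150 to 231 CPM. Of 22 lectins and pattern recognition receptors 12 were tested and 1 was called: Clec4n, dectin-2, rose with both Fc-enhanced antibodies (0.93 ± 0.22, adjusted p = 0.0441; 0.243% of all genes tested rose), at 88.9 and 70.4 CPM in the Untreated and N297A mice and 141 to 163 in the other 4. The median of the 12 was 0.43 for GA-aFuc and 0.38 for GITR/Syn GA-aFuc against Untreated, against 0.00 for all genes, with 0 called in either. Of 8 enzymes of the kynurenine pathway 5 were tested and 0 were called, at medians from -0.31 to 0.33. Kynu was at 75.8 to 174 CPM and Kmo, one of the 7 markers, at 142 to 218, while Ido1, which opens the pathway, was at 0 to 3.31. The 13 mitochondrial transcripts had medians from -0.06 to 0.22 and 0 were called.

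Transcripts of receptors that the antibody's Fc can bind were found in these cells. Receptor protein and antibody binding were not measured. FCGR2B, the inhibitory human Fcγ receptor, was at 1288, 1477, 1159 and 1306, and 1329 and 1509 CPM. It was found in 99.3% of cDC2, and in 28.8% of CD8 T cells. After thinning to 3000 UMIs these shares were 95.1% and 11.7%. FCGR3B was at 591 to 1078 CPM, FCGR2A at 149 to 269, FCGR3A at 69.7 to 132 and FCGR1A at 9.78 to 41.3. The FCGR2 and FCGR3 genes are near copies, so that reads may be split among them. In cDC2 the level of FCGR2B was 1356 CPM, against 1141 in monocytes and 384 in macrophages, whereas FCGR3B was at 864 against 2929.5 and 3520.4. The mouse genes Fcgr1 and Fcgr4 were at 0 and mouse Fcgr2b was at 95.8 to 244 CPM. Fcer1g, the signalling chain shared by activating receptors, was at 1023 to 1506. Of 16 genes on the list of Fc receptors and adaptors 12 were tested and 0 called in any comparison. Tnfrsf18 itself was at 35.9, 30.7, 45.7 and 41.6, and 41.3 and 25.4 CPM, with a UMI in 30.6% of cDC2, and was not called. Its ligand Tnfsf18 was at 0 to 3.42 CPM.

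To ask whether the Fc-enhanced antibodies moved genes differently in cDC2 and in monocytes of the same mice, the difference of the 2 log2 fold changes was tested with the mouse as a block. Of 11829 genes, 23 passed (0.194%), 18 with the lower value in cDC2 (0.152%) and 5 with the higher (0.0423%). This fit also has few residual degrees of freedom, and its p-values rest on a spread taken as shared across genes. Very small p-values here therefore measure variation between mice poorly. Id2 fell in cDC2 (-0.97 ± 0.19) and rose in monocytes (0.96 ± 0.15, adjusted p = 0.0159), a difference of -1.94 (adjusted p = 2.7e-12). Ccl5 differed by -1.88 (adjusted p = 1.04e-11), with 0.02 ± 0.24 in monocytes. Capg differed by 1.13 (adjusted p = 0.0180), with 0.03 ± 0.20 in monocytes. In cDC2, however, the N297A mouse lay above both GITR/Syn GA-aFuc mice for Capg. The pooled Capg log2 fold change in cDC2 ran from 0.19 to 2.08 over the alternatives. For Ccl5, 1 GITR/Syn GA-aFuc mouse was about level with the N297A mouse.

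Mki67, Stmn1, Top2a, Hmgb2 and H1f5 also differed, all with the lower value in cDC2. In monocytes their log2 fold changes lay between -0.26 and 0.36 and none was called. The test against monocytes was not run without cluster 64, and the part of that cluster in these differences was not tested. In cDC2 alone, 0 genes of this contrast were called without that cluster. With macrophages in place of monocytes 17 genes passed. Id2 (-1.35, adjusted p = 0.00100), Ccl5 (-1.38, adjusted p = 0.00167), Mki67 (-1.62, adjusted p = 0.000666) and Capg (1.24, adjusted p = 0.0396) were among them. Of the 13 genes plotted, 6 were not: Top2a (-0.98, adjusted p = 0.199), Ccl4 (0.98, adjusted p = 0.119), Hmgb2 (-0.51), Ier3 (0.71), Cd209a (0.91) and Ccl17, the last 4 with an adjusted p of 1. For Ccl17 the sign turned, from -2.36 with monocytes to 1.42 with macrophages.

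**Figure D5:**
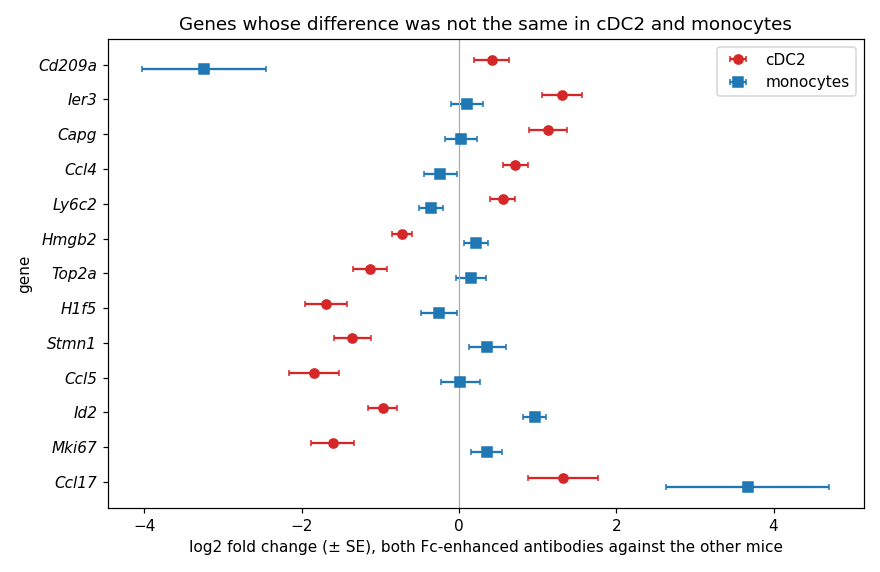
Log2 fold change ± SE (x axis) between the 4 mice given an enhanced Fc and the other 2, in cDC2 (circles) and monocytes (squares), for 13 genes whose difference between the cell types passed an adjusted p of 0.05. Id2 lies on opposite sides of 0 in the 2 cell types. Capg and Ccl5 lie away from 0 in cDC2 and near 0 in monocytes, but the cDC2 levels of Capg overlapped between the 2 groups of mice.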

How the data were processed

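Single-cell 3′ RNA libraries of sorted, hashed CD45-positive cells were deposited as unfiltered UMI counts per feature and barcode (2979617 barcodes; 38606 human, 33696 mouse and 6 hashtag features), with Cell Ranger 9.0.0 named in the file headers, and GRCh 38 and GRCm 39 in the submitters' processing notes. Treatment, cell type and cluster come from the authors' deposited table; sources used here do not give the authors' method for these or for doublets. Doublets were not called anew. Library 1 counts were not used here: for library 1 only the annotation enters the shares. Mice are the 12 runs of rising barcodes in that table.

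Counts were summed per mouse over cDC2 and tested with edgeR 4.0.16 (filterByExpr with a minimum of 10, TMM, quasi-likelihood F test, 1 fit of 6 mice, Benjamini-Hochberg over all genes, R 4.3.3). SE is the size of the log2 fold change over the square root of F. CPM are per 1000000 mapped UMIs. Shares were tested by exact permutation (32400 arrangements). Intervals and floors of 3 counts cover counting error only. The labels name separate mice but no replicate numbers.

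On simulated counts for GA-aFuc against Untreated (6998 genes) edgeR found 14 of the 100 genes simulated at 2-fold, 83 of the 100 at 8-fold, and 9 false ones; the test against monocytes (9733 genes) found 16 and 89, and 6 false ones. Most 2-fold changes were thus missed in the simulations. The counts for GA-aFuc against Untreated were drawn with a common spread for all genes and no outlying cells. Recovery and false calls in the real data may therefore differ, and depth was not varied.

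The cells, markers and gene lists were chosen with earlier results of these data known. Named genes are the markers and the cDC2 identity list, in each comparison the 8 highest and 8 lowest called genes without overlap between mice, for each list the 4 members of smallest p, and Tnfrsf18, Tnfsf18, the FCGR genes, Capg, Plet1 and Ccl4; cluster genes, Xist, Il2ra, Gm4951, Klrk1 and genes of other lineages were added after their values were seen. Alternatives were DESeq2 1.42.0, RLE size factors, other filters, cell subsets and each mouse left out; leaving out cluster 64 was chosen after seeing the data. RefSeq promoters are GRCm38.p6. Some genes that the naming rule selects are not reported here.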

Additional observations from a re-analysis of the deposited data

Results flagged for a closer look

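In 13 named genes the difference between mice given an Fc-enhanced antibody and the other mice was not the same in cDC2 and in monocytes, by an edgeR test of the difference itself (cDC2 minus monocytes, log2 scale, adjusted p under 0.05). The value was lower in cDC2 for Ccl17 (-2.36), Mki67 (-1.96), Id2 (-1.94), Ccl5 (-1.88), Stmn1 (-1.74), H1f5 (-1.45), Top2a (-1.28) and Hmgb2 (-0.93). It was higher for Ly6c2 (0.90), Ccl4 (0.99), Capg (1.13), Ier3 (1.24) and Cd209a (3.60). Cd209a and Ccl17 were near absent from monocytes, at 1.10 and 3.78 CPM, and in cDC2 neither was called in this contrast (0.42 and 1.32). For Ly6c2, which monocytes held at 2168 CPM against 584 in cDC2, neither cell type alone was called (0.56 in cDC2, -0.36 in monocytes). DESeq2 called 2 genes for the same difference. With macrophages in place of monocytes, Ccl17 turned to 1.42 and was not called (adjusted p = 1), nor were Hmgb2, Top2a, Ccl4, Ier3 and Cd209a, whereas the other 7 genes were.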

How the results depend on the processing

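The counts of called genes depended on the settings; the cause was not tested. In the order GA-aFuc against Untreated (19), GA-aFuc against N297A (42), GITR/Syn GA-aFuc against Untreated (4), GITR/Syn GA-aFuc against GA-aFuc (30), N297A against Untreated (9) and both Fc-enhanced antibodies against the other mice (35), DESeq2 called 1, 0, 0, 6, 2 and 1. At an unadjusted p under 0.05 DESeq2 had 69, 101, 41, 97, 42 and 84 genes and edgeR 496, 629, 379, 603, 356 and 541. RLE size factors gave 12, 34, 0, 24, 7 and 27, no filter 11, 28, 0, 21, 7 and 24, and a minimum count of 30 gave 1, 23, 0, 9, 2 and 15. Equal cells per mouse (33) gave 30, 69, 12, 49, 25 and 30. Without the 5% of cells with the most UMIs the counts were 46, 68, 20, 36, 13 and 47, and without the 97 cells with 2 or more T or NK markers 2, 33, 0, 3, 2 and 7. Klrk1, one of those markers, had a UMI in 87.3% of cDC2, so the 97 cells need not be mixed with T or NK cells. Without cluster 64 the counts were 1, 0, 0, 9, 0 and 0. Fits of only the treatments compared, possible for the first 4, gave 51, 95, 48 and 13. With 1 mouse left out at a time the counts ran from 16 to 92, 40 to 119, 3 to 57, 27 to 87, 24 to 42 and 4 to 108. The highest counts came without a GA-aFuc mouse (replicate 1 for 92, 119, 87 and 108, replicate 2 for 57, either for 42), and the 4 without the N297A mouse. The test against monocytes (23) gave 2 with DESeq2, 6 with a minimum count of 30, and 15 to 26 with 1 mouse left out.

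Of 81 pairs of a named gene and a comparison, 3 were called under every alternative: Capg in GA-aFuc against Untreated, and Cd209a and Gm56663 in GITR/Syn GA-aFuc against GA-aFuc. For the Capg pair no alternative could leave out the lone Untreated mouse. DESeq2 called 6 of the 70 pairs to which it gave an adjusted p. The sign changed in 4 pairs: Hmgb2 in GITR/Syn GA-aFuc against Untreated (0.00832 without cells with T or NK markers and 0.0105 without cluster 64), H2ac8 in GITR/Syn GA-aFuc against GA-aFuc (0.31 without the highest 5% of cells and 2.97 without cells with T or NK markers), Ccl17 in the same comparison (0.0725 without GA-aFuc replicate 1 and -2.98 without GA-aFuc replicate 2) and Rrm2 with both Fc-enhanced antibodies (0.36 without cells with T or NK markers). The 2 results on shares kept their side of the threshold. All mice held at least 30 cDC2, so that minimum changes nothing, and mregDC were too few per mouse to replace monocytes. No paired analysis was possible because the labels give no replicate numbers that the treatments share.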
